A study of Mus musculus with 8 samples.

Results

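The heart takes most of its energy from long-chain fatty acids, and the RNAs of 47 genes that carry this route were described here in the LVs of mice under pressure overload. The members are picked out by gene symbol alone, from a list drawn up with earlier results of these data known, and all 47 were found among the 46040 genes of the deposited counts. They are the genes of lipoprotein lipolysis and uptake (7), acyl-CoA synthetases (4), the carnitine shuttle (6), malonyl-CoA control (3), the beta-oxidation spiral (9), auxiliary and peroxisomal oxidation (5), the electron transfer flavoprotein (3), triglyceride synthesis (3), lipid droplets and lipolysis (5) and uncoupling proteins (2).

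RNA was sequenced from the LVs of male C57BL/6 mice aged 5 to 7 months, at day 14 of angiotensin II (angII) infusion at 0.1 mg/kg/h. There were 4 libraries from littermate control mice and 4 from VEGFR-1 TK-/- mice, which lack the intracellular tyrosine kinase domain of VEGFR-1, the receptor encoded by *Flt1*. Both groups received angII, so no library shows an LV without pressure overload, and animals were collected only if they lived to day 14. The allele is a germline one and is present in every cell type.

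The labels of each library disagree: its genotype tag and library name give one genotype and its title gives the other. The libraries were grouped by tag and library name and go by the short names control-tagged and TK-/--tagged. If the titles are right, every difference below has the opposite sign. Library totals were 11449137 to 16239670 counts and 13542 genes were tested. *Flt1* itself had a level of 56.9 to 84.3 in the control-tagged libraries and 144 to 170 in the TK-/--tagged libraries, in normalised CPM (counts scaled to the TMM-adjusted library size). These are counts over the whole gene and do not tell the deleted part from the rest. The library names contain the word cardiomyo while the source is given as LV tissue. All 8 cardiomyocyte markers were tested, and their summed level was 60968 to 99600 normalised CPM. Endothelial, fibroblast and leukocyte markers were also measured in every library. In bulk tissue, fewer cells of a type and less RNA per cell cannot be told apart.

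Fatty acids reach the cardiomyocyte from albumin or are freed from lipoproteins by lipoprotein lipase, cross the membrane with the help of CD36 and fatty acid transport proteins, and are bound in the cytosol by FABP3. Acyl-CoA synthetases activate them, and the carnitine shuttle, which is inhibited by malonyl-CoA, brings them into mitochondria. There the beta-oxidation spiral shortens the acyl chain and passes electrons to the respiratory chain, partly through the electron transfer flavoprotein. Fatty acids that are not oxidised are stored as triglyceride in lipid droplets. Many genes of the route are known targets of the nuclear receptors PPARalpha and the estrogen-related receptors with their coactivator PGC-1alpha, and in hypertrophied hearts this programme is often low.

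Promoter sequence was examined for letters that such nuclear receptors bind. RefSeq promoter windows of 300 bases, from 250 before to 50 after the start (GRCm38.p6), were matched for 38 of the 47 members, in 45 windows. On either strand, the hexamer AGGTCA, the core of many nuclear receptor elements, was present in 11 of the 45 windows (24.4%), against 16.3% of 32851 windows of all genes. The member genes with it were *Acacb*, *Acadm*, *Acadvl*, *Cd36*, *Cpt1a*, *Echs1*, *Gpam*, *Plin2*, *Plin5* and *Ucp3*. The longer spelling TCAAGGTCA, an estrogen-related receptor element that contains the hexamer, was in 0 of the 45 windows and in 0.423% of all windows. A direct repeat of AGGNCA with 1 base between the copies, the form of many PPAR elements, was in 0 of the 45 and in 0.381% of all. The E-box CACGTG was present in *Lipe*, *Plin2* and *Slc27a1*, or 6.67% of member windows against 7.15% of all.

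3 windows are printed because the genes recur in the results. *Ucp3* (chr7:100472741-100473040, + strand) had the largest fold change of the members and has AGGTCA starting at 149 and at 44 bases before the start. *Acadvl* (chr11:70015379-70015678, - strand), which encodes the first dehydrogenase for long chains, has it at 87 bases before the start. *Hadhb* (chr5:30155003-30155302, + strand) faces *Hadha* head to head, with a gap of 85 bases between the gene ends of the GENCODE M21 annotation. The windows of that pair, set on RefSeq starts that differ from those gene ends, share 228 bases. None of the 4 motifs is in the *Hadhb* window. Sequences are written 5′ to 3′ along the strand of the gene, and capitals mark AGGTCA. A match is a description of letters, and binding was not measured.
Ucp3: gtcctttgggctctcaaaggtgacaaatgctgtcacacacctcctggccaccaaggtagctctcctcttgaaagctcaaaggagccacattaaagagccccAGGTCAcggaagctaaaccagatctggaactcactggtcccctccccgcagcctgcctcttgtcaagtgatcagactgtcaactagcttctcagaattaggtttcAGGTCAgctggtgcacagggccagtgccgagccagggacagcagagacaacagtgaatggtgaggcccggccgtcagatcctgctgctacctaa
Acadvl: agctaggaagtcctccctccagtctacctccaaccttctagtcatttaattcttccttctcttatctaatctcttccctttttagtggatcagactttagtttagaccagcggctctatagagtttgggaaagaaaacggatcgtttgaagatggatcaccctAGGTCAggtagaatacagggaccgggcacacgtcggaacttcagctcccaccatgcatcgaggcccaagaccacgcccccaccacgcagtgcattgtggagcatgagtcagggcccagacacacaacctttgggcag
Hadhb: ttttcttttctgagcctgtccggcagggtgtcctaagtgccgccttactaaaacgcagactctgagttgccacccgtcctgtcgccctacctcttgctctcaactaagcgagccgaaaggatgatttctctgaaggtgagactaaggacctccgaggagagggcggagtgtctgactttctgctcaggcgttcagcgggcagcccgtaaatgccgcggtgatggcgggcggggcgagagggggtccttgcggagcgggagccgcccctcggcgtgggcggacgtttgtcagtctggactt

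Levels were set side by side per kb of merged exon length, as normalised CPM per kb over all 8 libraries. *Fabp3*, the heart fatty acid binding protein, stood far above all other members at 6213. *Acaa2*, the last enzyme of the spiral, followed at 623, then *Etfb* at 563, *Lpl* at 544, *Acadl* at 537 and *Ech1* at 536. The lowest members were *Acaca* at 0.802, the acyl-CoA synthetases *Acsl3* at 1.46 and *Acsl4* at 1.75, and *Cpt1b* at 2.18. The level of *Cpt1b* is uncertain, because most of its exon bases are shared with another gene, as given below. *Acaca* encodes the acetyl-CoA carboxylase of lipogenic tissues, and *Acacb*, the form on the mitochondrial surface of muscle, was at 36.1. Within a library *Acacb* exceeded *Acaca* per kb by a median factor of 45.0 and *Fabp3* exceeded *Fabp4* by 29.6. Per kb, *Acsl1* exceeded *Acsl5* by 11.6 and *Dgat2* exceeded *Dgat1* by 11.2. These factors and the order above depend on the merged lengths, which take in the exons of every annotated transcript. That of *Fabp4*, 4.489 kb, covers its whole gene span (chr3:10204088-10208576), against 0.823 kb for *Fabp3*. Before division by length the means were 5114 normalised CPM for *Fabp3*, 5705 for *Lpl* and 932 for *Fabp4*.

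*Cpt1a*, the liver form of carnitine palmitoyltransferase 1, exceeded *Cpt1b*, the muscle form, by a median factor of 3.30. That order and the level of *Cpt1b* itself are uncertain. In GENCODE M21, 81.4% of the exon bases of *Cpt1b* are shared on the same strand with the readthrough gene Gm44502, for which the counts have no row. *Etfb* shares 53.0% of its exon bases with Gm45233 in the same way. *Acadvl* shares 42.9% with *Dvl2* on the opposite strand, whose own counts were 88 to 128 against 11127 to 17799 for *Acadvl*. The other 44 members share 20% or less.

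**Figure D1:**
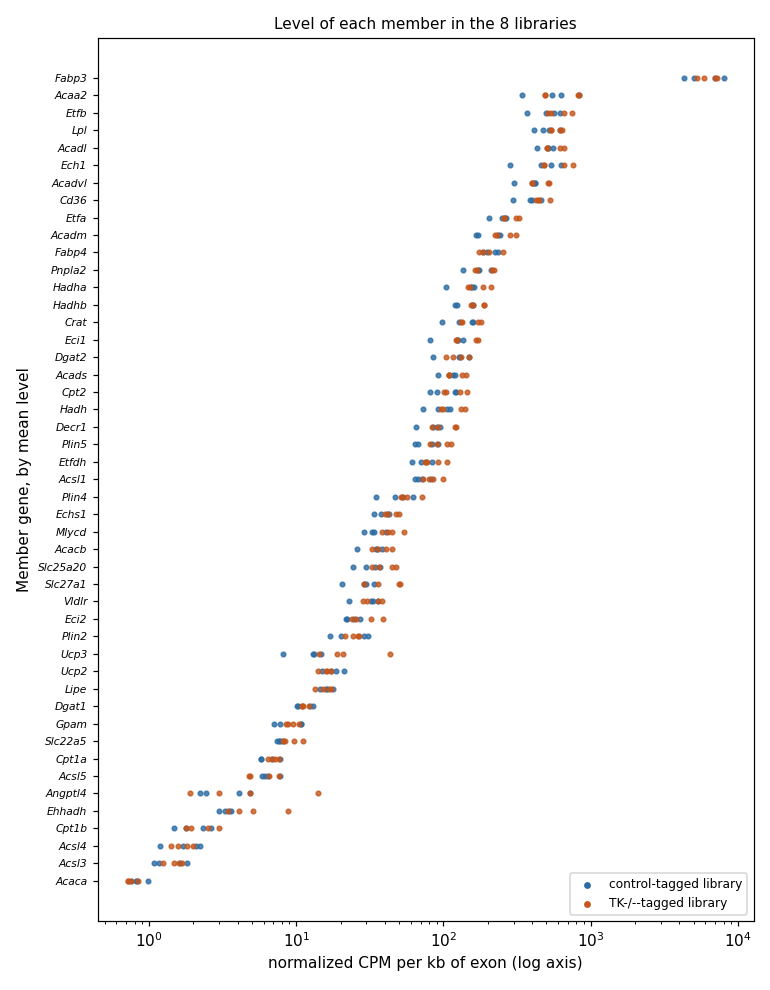
Level of each of the 47 members as normalised CPM per kb of exon (log axis), with 1 point per library and members in order of their mean. *Fabp3* is the highest member at a mean of 6213 and *Acaca* the lowest at 0.802, and control-tagged and TK-/--tagged points lie close together for most members.

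The comparison of the groups asks whether loss of VEGFR-1 kinase signalling goes with another level of these RNAs in the pressure-overloaded LV. None of the 47 members was called by edgeR's quasi-likelihood test at a false discovery rate (FDR, Benjamini-Hochberg over all genes tested) under 0.1 with a difference of 1.5-fold or more. That rule called 0.00738% of all genes tested, a single gene. The likelihood ratio test of edgeR called 0.391% of all genes and 0 members, and DESeq2 also called 0 members. The lowest FDR of a member by the quasi-likelihood test was 0.453, for *Ucp3*. What follows therefore describes values and directions, and no single member differed by more than the spread between libraries allows at that threshold.

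40 of the 47 members were higher in the TK-/--tagged libraries and 7 were lower, while 49.7% of all genes tested were higher. The median log2 fold change (log2FC) was 0.21 over the members and -0.00 over all genes. At an unadjusted p under 0.05 in the same quasi-likelihood test there were 10 members (21.3%), all of them higher: *Slc27a1*, *Slc22a5*, *Slc25a20*, *Mlycd*, *Acadm*, *Hadhb*, *Eci2*, *Ehhadh*, *Plin5* and *Ucp3*. The same threshold was passed by 8.96% of all genes, by 3.32% in the higher direction and by 5.64% in the lower. A difference of 1.5-fold or more was found for 3 members (*Angptl4*, *Ehhadh* and *Ucp3*) and for 3.6% of all genes. The 7 lower members were *Fabp4*, *Acsl4*, *Acsl5*, *Acaca*, *Dgat1*, *Lipe* and *Ucp2*, with log2FC values between -0.19 and -0.02.

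Single libraries weighed on that count. It fell to 2 members without TK-/--tagged replicate 2, to 3 without TK-/--tagged replicate 3 and to 4 without control-tagged replicate 2. The share of all genes at that p was then 5.25%, 6.20% and 7.73%. *Mlycd* and *Ucp3* were among the members in each of the 3 cases. The median of the members stayed above 0 in each leave-one-out fit, between 0.13 and 0.27.

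**Figure D2:**
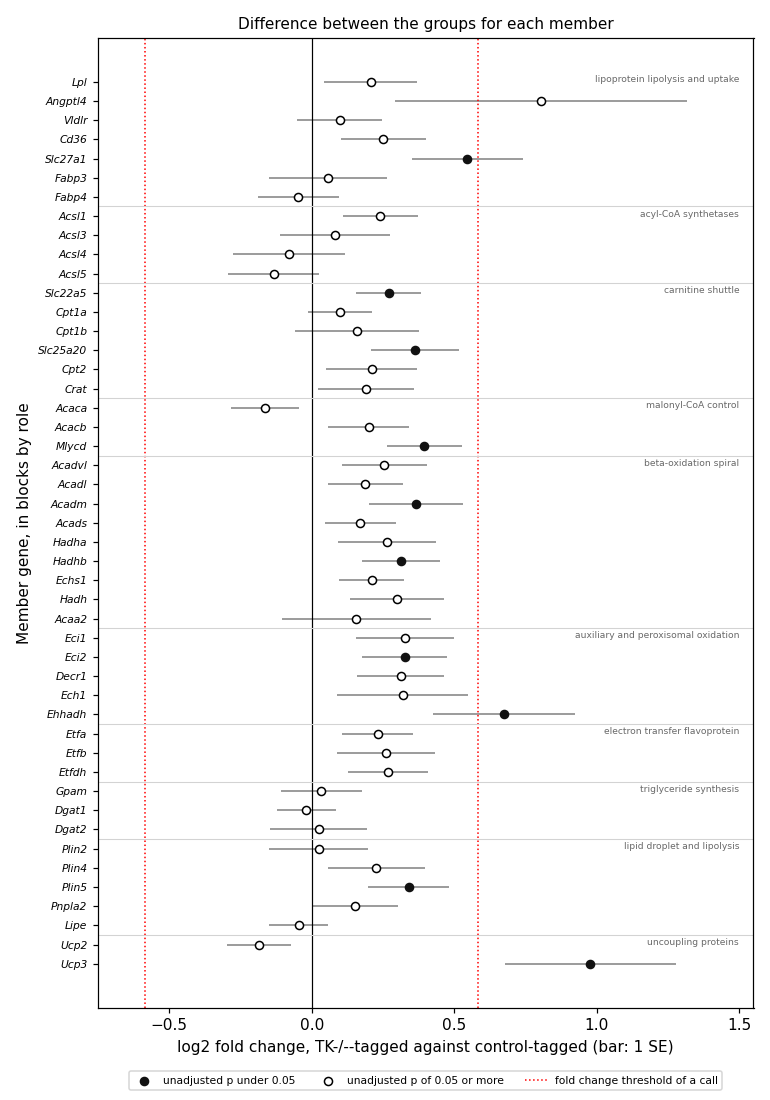
Log2FC of each member, TK-/--tagged against control-tagged (n = 4 and 4), with bars of 1 SE and filled points at an unadjusted p under 0.05. 40 of the 47 points lie to the right of 0, and 3 (*Angptl4*, *Ehhadh* and *Ucp3*) lie past the dotted line at 1.5-fold.

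Among the genes of lipolysis and uptake, 6 of 7 were higher in the TK-/--tagged libraries and 1 had an unadjusted p under 0.05, with a median log2FC of 0.21. *Slc27a1* (ENSMUSG00000031808, chr8:71568882-71587302) encodes fatty acid transport protein 1, a membrane protein of muscle and fat that couples uptake to activation. It was at 173, 119, 198 and 168 normalised CPM in control-tagged replicates 1 to 4 and at 209, 296, 289 and 167 in TK-/--tagged replicates 1 to 4. TK-/--tagged replicate 4 lay within the control-tagged range and the other 3 lay above it. The log2FC was 0.55 (SE 0.19, FDR 0.484 by edgeR's quasi-likelihood test).

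*Lpl*, the lipase that frees fatty acids from lipoproteins at the capillary wall, was at 5423, 4295, 4954 and 6517 normalised CPM in the control-tagged libraries and at 5617, 6482, 6736 and 5613 in the TK-/--tagged libraries. Its difference of 0.21 on the log2 scale (SE 0.16) was within the spread of the controls. *Angptl4*, a secreted inhibitor of that lipase and a well known PPAR target, was at 14.4, 17.1, 8.68 and 7.92 against 17.3, 50.1, 10.5 and 6.70. The log2FC of 0.81 (SE 0.51) came from TK-/--tagged replicate 2, and without that library it was -0.07.

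*Cd36*, the main fatty acid translocase of the cardiomyocyte, was at 1389, 1444, 1062 and 1644 normalised CPM against 1517, 1894, 1602 and 1582, a log2FC of 0.25 (SE 0.15). Its lowest library was control-tagged replicate 3, and the groups overlapped. *Fabp3* was at 5746, 3558, 6585 and 4150 against 4306, 5750, 5939 and 4875, a log2FC of 0.06 (SE 0.21), small beside the range among the controls. *Vldlr*, a receptor for triglyceride-rich lipoproteins, had a log2FC of 0.10, and *Fabp4*, the fatty acid binding protein of fat cells and capillary endothelium, of -0.05.

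*Fabp4* RNA can come from fat attached to the heart. Of 7 white adipocyte markers 3 (*Plin1*, *Lep* and *Retn*) were at 0 in every library, *Adipoq* was at most at 0.145 normalised CPM, and the summed level was 0.581 to 3.09 in the control-tagged and 0.325 to 1.66 in the TK-/--tagged libraries. Of 4 brown adipocyte markers *Elovl3* was at 0 in every library and *Ucp1*, which defines brown fat, was at most at 0.0800, while the list summed to 45.7 to 60.0 in the control-tagged and 41.9 to 55.0 in the TK-/--tagged libraries. Most of that sum was *Cidea*, at 36.7 to 54.7 over all 8 libraries, and the rest *Dio2*, at 5.31 to 12.8 against 2.13 to 8.05.

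The acyl-CoA synthetases showed no common direction, with 2 of 4 higher and a median log2FC of 0.00. *Acsl1*, the main cardiac form, was at 866, 667, 699 and 748 normalised CPM in the control-tagged libraries and at 761, 1036, 891 and 833 in the TK-/--tagged libraries. Its log2FC was 0.24 (SE 0.13), and TK-/--tagged replicates 1 and 4 lay within the range of the controls. *Acsl3*, an enzyme of the endoplasmic reticulum and lipid droplet, had 0.08. *Acsl4*, which prefers arachidonate, had -0.08 and *Acsl5* had -0.13.

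All 6 genes of the carnitine shuttle were higher in the TK-/--tagged libraries, with a median log2FC of 0.20 and 2 at an unadjusted p under 0.05. *Slc22a5* (ENSMUSG00000018900, chr11:53864542-53891660) encodes OCTN2, the sodium-dependent transporter that loads the cardiomyocyte with carnitine. It was at 24.0, 22.6, 25.0 and 23.6 normalised CPM in the control-tagged libraries and at 25.1, 34.3, 29.9 and 25.7 in the TK-/--tagged libraries. It was the only member whose groups did not overlap, by 25.0 against 25.1 (exact permutation test, p = 0.0286, the smallest that 4 against 4 allows). Of all genes tested 4.98% had groups that did not overlap, 2.46% in the higher and 2.53% in the lower direction, so 1 of 47 members is no more than the background. The log2FC was 0.27 (SE 0.11, FDR 0.522 by edgeR's quasi-likelihood test), and with RLE size factors the groups overlapped.

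*Slc25a20*, the carrier that exchanges acylcarnitine for carnitine across the inner mitochondrial membrane, was at 181, 117, 144 and 166 normalised CPM against 158, 231, 216 and 176. TK-/--tagged replicates 2 and 3 lay above all controls, replicates 1 and 4 did not, and the log2FC was 0.36 (SE 0.15, FDR 0.529 by edgeR's quasi-likelihood test). *Cpt1b* was at 8.83, 5.01, 7.87 and 6.00 against 6.50, 10.1, 8.45 and 5.98, with 69 to 118 counts a library and a log2FC of 0.16 (SE 0.22). *Crat*, the carnitine acetyltransferase that buffers acetyl-CoA and the highest of the shuttle per kb, was at 837, 530, 860 and 687 against 721, 962, 927 and 714. Its log2FC was 0.19, that of *Cpt2*, the inner membrane enzyme, 0.21, and that of *Cpt1a* 0.10.

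Malonyl-CoA, the product of the acetyl-CoA carboxylases, blocks carnitine palmitoyltransferase 1, and malonyl-CoA decarboxylase removes it. *Mlycd* (ENSMUSG00000074064, chr8:119394878-119411102), the gene of that decarboxylase, was at 121, 85.6, 99.7 and 97.4 normalised CPM in the control-tagged and at 124, 161, 133 and 114 in the TK-/--tagged libraries. 3 TK-/--tagged libraries exceeded all controls, and replicate 4 was exceeded only by control-tagged replicate 1. The log2FC was 0.40 (SE 0.13, FDR 0.468 by edgeR's quasi-likelihood test; exact permutation p = 0.0571).

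*Acacb* was also higher (log2FC 0.20, SE 0.14) and *Acaca* lower (-0.16, SE 0.12). The ratio of *Acacb* to *Acaca* per kb was 39.9 ± 6.70 against 51.2 ± 8.20 (SD, 4 libraries each). The 2 ranges, 30.9 to 46.5 and 43.5 to 62.8, overlapped.

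Of the 17 members that act in oxidation itself (the spiral, the auxiliary and peroxisomal enzymes and the electron transfer flavoprotein), all 17 were higher in the TK-/--tagged libraries, with log2FC values of 0.16 to 0.67 and a median of 0.27. With counts scaled to cardiomyocyte markers 14 of the 17 were higher, with a median of 0.08, against a median of -0.19 over all genes in that scaling. These genes varied together over libraries, so their common direction is not 17 separate observations. Control-tagged replicate 2 was the lowest of the 8 libraries for 14 of them. TK-/--tagged replicate 2 was the highest for 11 and TK-/--tagged replicate 3 for 5. TK-/--tagged replicates 1 and 4 both lay within the range of the controls for 15 of the 17, while replicates 2 and 3 both lay above all controls for 16.

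In the beta-oxidation spiral all 9 genes were higher, 2 of them at an unadjusted p under 0.05, with a median log2FC of 0.25. *Acadm*, the medium-chain acyl-CoA dehydrogenase, was at 917, 674, 646 and 952 normalised CPM in the control-tagged libraries and at 872, 1219, 1111 and 906 in the TK-/--tagged libraries. The 2 lowest libraries were control-tagged replicates 2 and 3, and the log2FC was 0.37 (SE 0.16, FDR 0.553 by edgeR's quasi-likelihood test).

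*Hadhb*, the beta subunit of the mitochondrial trifunctional protein and carrier of its thiolase activity, was at 1041, 809, 785 and 1025 normalised CPM against 1018, 1249, 1240 and 1043, a log2FC of 0.31 (SE 0.14, FDR 0.539 by edgeR's quasi-likelihood test). *Hadha*, the alpha subunit with the hydratase and long-chain dehydrogenase, was at 1417, 909, 1374 and 1337 against 1277, 1623, 1830 and 1319, a log2FC of 0.26 (SE 0.17). The subunits assemble in equal numbers, and their levels per kb were close, with a median *Hadha* to *Hadhb* ratio within a library of 0.984. The ratio ran from 0.849 in control-tagged replicate 2 upwards in the control-tagged libraries, with replicate 3 highest, and from 0.948 upwards in the TK-/--tagged libraries, with replicate 3 highest there too.

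*Acaa2*, the thiolase that ends the spiral, was at 952, 521, 1267 and 833 normalised CPM against 743, 1262, 1236 and 742. The groups overlapped almost fully, and the log2FC was 0.16 (SE 0.26). *Acadvl* was at 1122, 808, 1118 and 1096 against 1079, 1383, 1406 and 1076, so 3 of the 4 controls lay between 1096 and 1122 and replicate 2 well below. The other spiral genes had log2FC values of 0.30 for *Hadh*, the dehydrogenase for medium and short hydroxyacyl chains, 0.21 for *Echs1*, the hydratase for short chains, 0.19 for *Acadl* and 0.17 for *Acads*, the long-chain and short-chain acyl-CoA dehydrogenases.

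All 5 auxiliary and peroxisomal genes were higher, 2 at an unadjusted p under 0.05, with a median log2FC of 0.33. *Ehhadh* (ENSMUSG00000022853, chr16:21761287-21787807), the bifunctional enzyme of peroxisomal beta-oxidation, was at 10.8, 9.73, 10.5 and 8.88 normalised CPM in the control-tagged libraries and at 10.2, 26.3, 15.1 and 12.3 in the TK-/--tagged libraries. 3 TK-/--tagged libraries lay above all controls, and replicate 2 stood alone at the top. The log2FC was 0.67 (SE 0.25, FDR 0.492 by edgeR's quasi-likelihood test), and 0.33 without that library.

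*Eci2*, an isomerase that prepares unsaturated chains for the spiral, was at 151, 121, 122 and 136 normalised CPM against 132, 214, 177 and 141, with a log2FC of 0.33 (SE 0.15, FDR 0.556 by edgeR's quasi-likelihood test). *Ech1*, a dienoyl-CoA isomerase, was at 1225, 650, 1437 and 1047 against 1108, 1502, 1733 and 1093. Its lowest and highest libraries were control-tagged replicate 2 and TK-/--tagged replicate 3, and its log2FC was 0.32 (SE 0.23). *Eci1*, the other mitochondrial isomerase, had 0.33 and *Decr1*, the dienoyl-CoA reductase, had 0.31.

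The 3 genes that carry electrons from the acyl-CoA dehydrogenases to ubiquinone differed by nearly the same amount, with log2FC values of 0.23 for *Etfa*, 0.26 for *Etfb* and 0.27 for *Etfdh* (SE 0.12 to 0.17), none at an unadjusted p under 0.05. *Etfb* was at 657, 432, 721 and 576 normalised CPM in the control-tagged and at 625, 765, 869 and 598 in the TK-/--tagged libraries. TK-/--tagged replicates 1 and 4 lay among the controls.

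**Figure D3:**
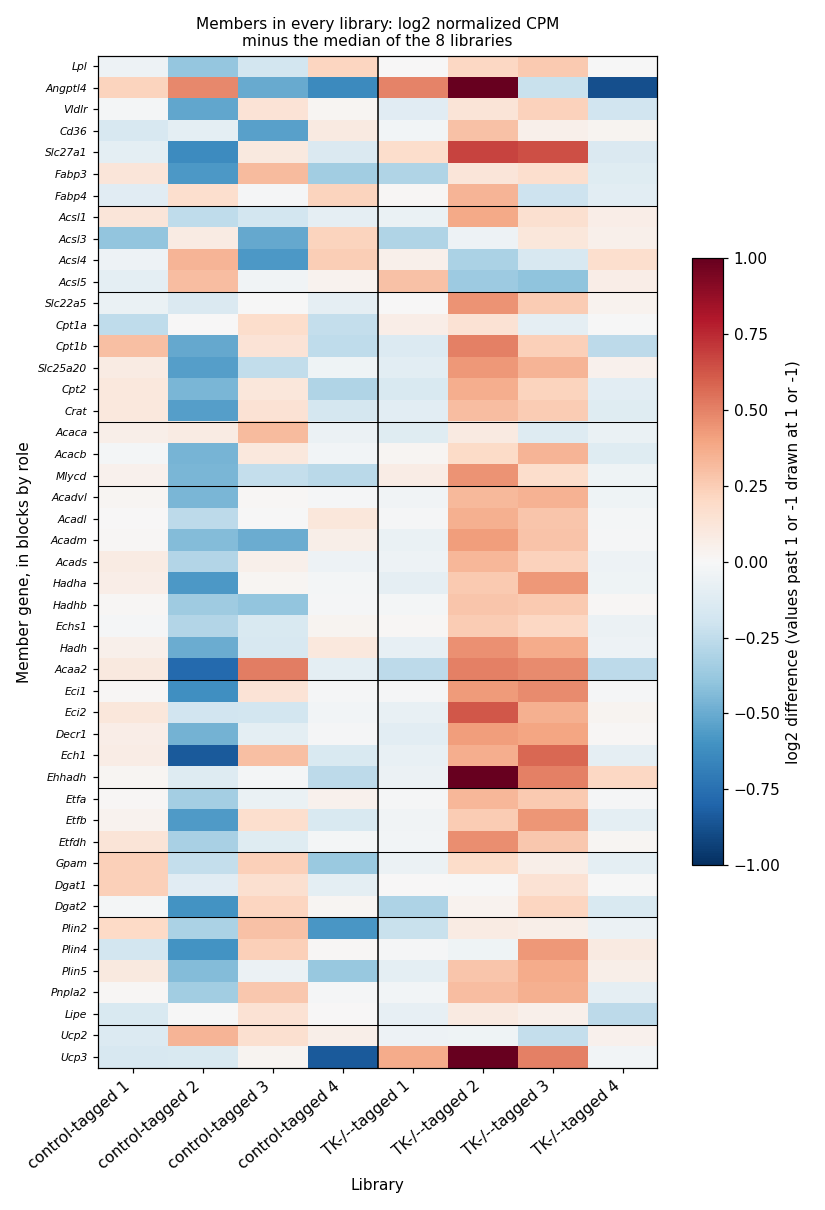
Deviation of each member in each library from its median over the 8 libraries (log2 normalised CPM, colour scale), with members in blocks by role. The column of control-tagged replicate 2 is low across the oxidation blocks (median -0.44) and the columns of TK-/--tagged replicates 2 and 3 are high (median 0.37 and 0.35).

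The genes of triglyceride synthesis were level between the groups, with a median log2FC of 0.02 and none at an unadjusted p under 0.05. *Dgat2*, which adds the last acyl chain and was the highest of the 3 per kb, was at 390, 261, 459 and 399 normalised CPM in the control-tagged libraries and at 319, 404, 457 and 356 in the TK-/--tagged libraries. The TK-/--tagged range lay inside the control-tagged range. The log2FC was 0.02 (SE 0.17). It was 0.03 for *Gpam*, the mitochondrial enzyme of the first step, and -0.02 for *Dgat1* (SE 0.10).

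On the lipid droplet 4 of 5 genes were higher, and 1 had an unadjusted p under 0.05. *Plin5*, the perilipin of oxidative tissues that tethers droplets to mitochondria, was at 193, 134, 174 and 139 normalised CPM in the control-tagged and at 169, 219, 234 and 188 in the TK-/--tagged libraries. TK-/--tagged replicates 2 and 3 lay above all controls, and the log2FC was 0.34 (SE 0.14, FDR 0.522 by edgeR's quasi-likelihood test). *Plin2*, the general droplet coat protein whose RNA tends to follow lipid load, was at 102, 70.9, 108 and 59.2 against 75.6, 93.3, 92.0 and 84.9, a log2FC of 0.02 (SE 0.17).

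All 4 TK-/--tagged values of *Plin2* lay inside the control-tagged range. The *Plin5* to *Plin2* ratio per kb was 3.26 ± 0.521 (SD, n = 4) against 3.93 ± 0.251, with ranges of 2.70 to 3.96 and 3.73 to 4.28 that overlapped. *Pnpla2*, the adipose triglyceride lipase that opens the breakdown of droplet fat, was at 526, 410, 632 and 520 normalised CPM against 512, 646, 670 and 492, a log2FC of 0.15 (SE 0.15). *Plin4* had 0.23 and *Lipe*, the hormone-sensitive lipase, -0.05.

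The uncoupling proteins went apart. *Ucp3* (ENSMUSG00000032942, chr7:100472990-100486432), the uncoupling protein of muscle mitochondria and a gene that rises with fatty acid supply, was at 40.7, 41.1, 46.5 and 25.4 normalised CPM in the control-tagged libraries. It was at 59.1, 135, 64.8 and 44.6 in the TK-/--tagged libraries. TK-/--tagged replicate 2 was more than double any other library, and TK-/--tagged replicate 4 lay below control-tagged replicate 3.

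The means of *Ucp3* were 38.4 ± 9.08 and 75.9 ± 40.3 (SD, n = 4), a log2FC of 0.98 (SE 0.30, FDR 0.453 by edgeR's quasi-likelihood test; exact permutation p = 0.0571). Without TK-/--tagged replicate 2 the log2FC was 0.54. Over the alternatives its FDR ran from 0.121 to 0.941. *Ucp2*, the form found mainly in immune and endothelial cells, was at 105, 147, 130 and 121 against 112, 113, 98.7 and 120, a log2FC of -0.19 (SE 0.11). The ratio of *Ucp3* to *Ucp2* per kb was 0.687 ± 0.178 against 1.54 ± 0.803, and its ranges, 0.469 to 0.861 and 0.830 to 2.68, just overlapped.

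**Figure D4:**
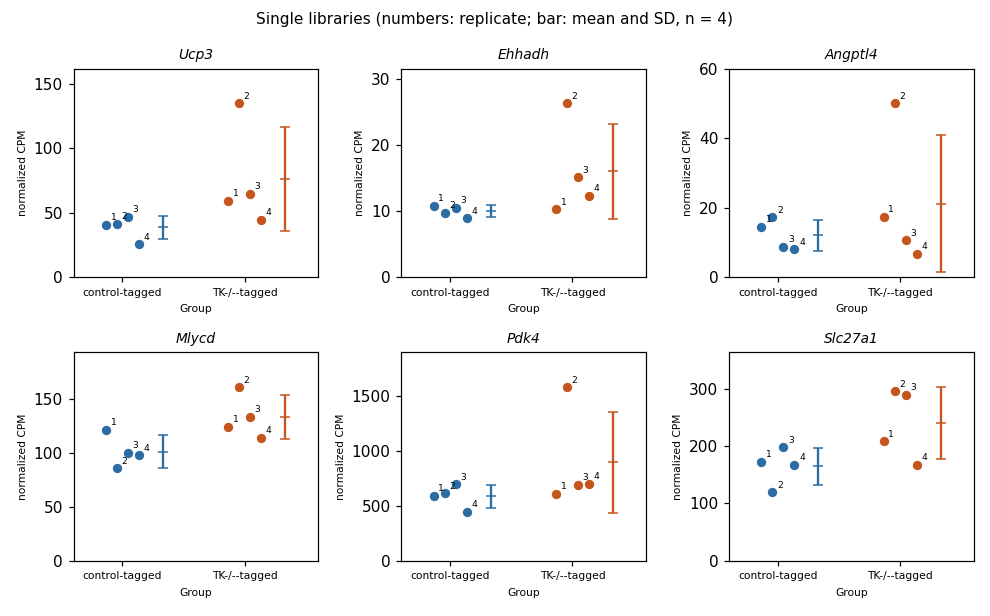
Normalised CPM of single genes in each library, control-tagged and TK-/--tagged, with the replicate number at each point and bars for the mean and SD (n = 4 a group). TK-/--tagged replicate 2 is the highest library in each panel, at 135 for *Ucp3*, 26.3 for *Ehhadh*, 50.1 for *Angptl4*, 161 for *Mlycd*, 1579 for *Pdk4* and 296 for *Slc27a1*.

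The members held 2.95, 2.46, 2.74 and 2.91% of all counts in control-tagged replicates 1 to 4 and 2.85, 3.50, 3.31 and 2.92% in TK-/--tagged replicates 1 to 4. The means were 2.77% ± 0.225 and 3.15% ± 0.311 (SD, n = 4), and the ranges overlapped. Over all 47 members control-tagged replicate 2 was the lowest library for 31, against 18.8% of all genes tested. TK-/--tagged replicate 2 was the highest for 23, against 14.8% of all genes, and TK-/--tagged replicate 3 for 11. TK-/--tagged replicates 1 and 4 were the highest for 0 members.

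Cardiomyocyte markers varied over the libraries as well, in an order that matched that of the oxidation genes only in part. Their summed level was 81062, 60968, 85962 and 80709 normalised CPM in the control-tagged and 82502, 84400, 99600 and 77128 in the TK-/--tagged libraries, with control-tagged replicate 2 lowest and TK-/--tagged replicate 3 highest. TK-/--tagged replicate 2, the highest library for 11 of the 17 oxidation genes, lay within the control-tagged range of the markers and below control-tagged replicate 3. 7 of the 8 markers were higher in the TK-/--tagged libraries, with a median log2FC of 0.19, and *Tnni3* and *Pln* had an unadjusted p under 0.05. The 5 fibroblast markers summed to 928, 1108, 760 and 807 against 949, 686, 453 and 975. The 6 endothelial markers summed to 1288 to 1617 against 1174 to 1303, and the 5 leukocyte markers to 106 to 143 against 73.8 to 112. Of the endothelial markers 5 of 6 were lower (median log2FC -0.25), 3 of them at an unadjusted p under 0.05. All 5 fibroblast markers were lower (median -0.16), 0 at such a p. Of the leukocyte markers 4 of 5 were lower (median -0.31), 1 at such a p.

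Scaled to the cardiomyocyte markers, an alternative chosen after these values were seen, the median of all genes was -0.19 and that of the members was 0.03. 28 of the 47 members were then higher, and 3 had an unadjusted p under 0.05: *Slc27a1* (0.36) and *Ucp3* (0.77) were higher and *Ucp2* (-0.39) was lower. Of all genes 13.7% had such a p in this scaling, but only 0.251% in the higher direction. None of the 17 oxidation genes had such a p, by edgeR's quasi-likelihood test in this scaling. The part of the cell mixture in the remaining differences was not tested.

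**Figure D5:**
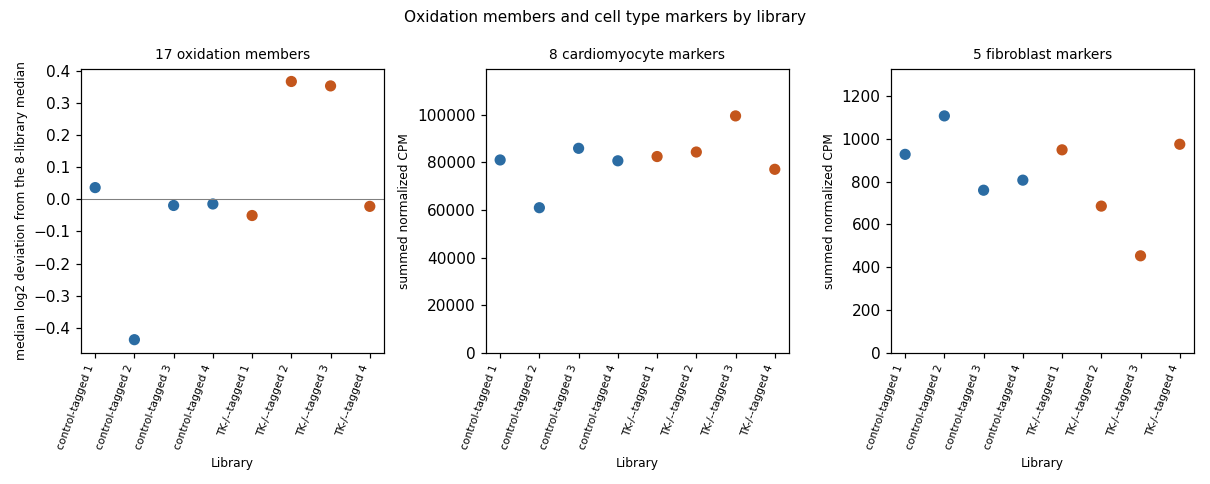
Per library, the median deviation of the 17 oxidation members from the median of the 8 libraries (log2 normalised CPM), the summed level of 8 cardiomyocyte markers (normalised CPM) and that of 5 fibroblast markers (normalised CPM). Control-tagged replicate 2 is the lowest library for the oxidation members (-0.44) and the cardiomyocyte markers (60968) and the highest for the fibroblast markers (1108).

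Other genes of the same route were listed to show what surrounds the members: 78 regulators and enzymes, of which 77 were tested. The quasi-likelihood test called 0 of them. At an unadjusted p under 0.05 there were 4 higher and 6 lower, against 3.32% and 5.64% of all genes tested. The groups did not overlap for 6 of the 77, 3 higher and 3 lower, against 4.98% of all genes. Among 20 regulators 17 were higher, with a median log2FC of 0.13. *Ppargc1a*, the gene of PGC-1alpha, was at 112, 73.1, 81.8 and 112 normalised CPM in the control-tagged and at 131, 118, 150 and 156 in the TK-/--tagged libraries, without overlap. Its log2FC was 0.55 (SE 0.15, FDR 0.442 by edgeR's quasi-likelihood test; exact permutation p = 0.0286). For this gene it was not TK-/--tagged replicate 2 that stood highest, and without that library the log2FC was 0.62. *Ppara*, the receptor gene, had 0.32 (SE 0.17).

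Of 23 further oxidation genes 17 were higher, with a median of 0.12. *Pdk4*, the kinase that shuts pyruvate out of oxidation, was at 589, 615, 694 and 444 normalised CPM against 607, 1579, 691 and 700. Its log2FC was 0.61 (SE 0.28), and 0.18 without TK-/--tagged replicate 2. *Pex11a*, a peroxisome division gene, had 0.28.

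The genes of uptake, storage and synthesis outside the members leaned the other way or not at all. Of 24 further uptake and storage genes 13 were higher, with a median of 0.02, and of 10 genes of fatty acid synthesis 2 were higher, with a median of -0.19. *Fabp5*, the fatty acid binding protein of endothelium and macrophages, was at 78.9, 102, 119 and 90.9 normalised CPM in the control-tagged and at 73.2, 72.4, 49.0 and 67.0 in the TK-/--tagged libraries, without overlap. Its log2FC was -0.58 (SE 0.15, FDR 0.442 by edgeR's quasi-likelihood test). The endothelial and leukocyte marker sums given above were also lower in the TK-/--tagged libraries, and their part in this difference was not tested. The other lower genes at an unadjusted p under 0.05 were *Agpat4* (-0.50) and *Lpin2* (-0.32) of phospholipid and triglyceride synthesis, *Acly* (-0.21), which makes cytosolic acetyl-CoA, the elongase gene *Elovl1* (-0.31) and the desaturase gene *Fads2* (-0.51).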

How the data were processed

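RNA of the LV was sequenced in 8 libraries, 4 a genotype. The labels name rRNA depletion and the methods name poly-A selection. Reads were trimmed by the authors (Trim Galore 0.4.4), who aligned them to GRCm38 with STAR 2.5.4b and counted them on GENCODE M16 genes with featureCounts (Rsubread 1.32.4), and the authors deposited raw counts per gene, not normalised. The methods name a stranded kit and the alignment kept reads with several alignments up to a set number, but the strand and multiple-alignment settings of the counting are not given in the sources used here, so paralogs and overlapping genes may share reads. Exon lengths, overlaps and coordinates were taken from GENCODE M21 (GRCm38), and promoters from RefSeq. Libraries were grouped by genotype tag and library name.

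The filter asked for CPM 1 or more in 2 or more libraries, and all 47 members passed it. Counts were scaled with TMM factors (0.917 to 1.12) and tested over all genes with edgeR 4.0.16 (glmQLFit and glmQLFTest, no covariates, R 4.3.3). Adjusted p-values are Benjamini-Hochberg values over all genes tested. Each SE given with a log2FC is the absolute log2FC divided by the square root of the F statistic of that test. It was derived from the test and not fitted separately. The biological coefficient of variation was 15.1%. Members had 67 to 97910 counts a library. Single genes were compared with an exact 2-sided permutation test over the 70 splits of 4 and 4 (log2 normalised CPM, prior count 2). The fit was tested on simulated data. As alternatives, DESeq2 1.42.0 and the likelihood ratio test were run, with other size factors, filters and dispersions, a replicate block, leaving out each library, and scaling to cardiomyocyte markers, which was added after seeing the data.

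The members and lists were chosen with earlier results of these data known, and no measured value enters the rule that finds the members. Values in every library are given for members with an unadjusted p under 0.05 or without overlap, for the highest member of each role per kb, and for *Cd36*, *Lpl*, *Cpt1b*, *Acadm*, *Plin2*, *Angptl4* and *Ucp3*. Of the other genes of the route, those called or with an unadjusted p under 0.05 are named, except for a gene that is not reported here. *Hadha*, *Acadvl* and *Ppara* were shown in addition after their values were seen. The labels do not tie libraries to separate preparations, so p-values measure the spread between these libraries, which may be partly technical.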

Additional observations from a re-analysis of the deposited data

Results flagged for a closer look

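3 of the 94 groups of 4 values (47 members in each group) held a library whose gap to the nearest other was above the 95% critical value of Dixon's test, where chance gives about 1 in 20. *Acadvl*, the very long-chain acyl-CoA dehydrogenase, was at 808 normalised CPM in control-tagged replicate 2 and at 1096 to 1122 in the other controls. *Hadha*, the alpha subunit of the trifunctional protein, was at 909 in the same library and at 1337 to 1417 in the others. The summed cardiomyocyte markers were also lowest in that library, and their part in these values was not tested. *Dgat1* was at 37.2 in TK-/--tagged replicate 3 and at 33.6 to 33.9 in the others of its group.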

How the results depend on the processing

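The count of called members was 0 under every alternative run. The direction of the 23 members shown in full held in 373 of 391 gene-by-setting values. That share is no test of direction: 10 of the 23 were shown for their p in these libraries, and every setting reuses the same counts. None of the 7 lower members is among the 23. Of those 7, *Fabp4* (-0.24 to 0.02), *Acsl4* (-0.28 to 0.04), *Dgat1* (-0.21 to 0.04) and *Lipe* (-0.25 to 0.02) changed sign over the alternatives. *Acsl5*, *Acaca* and *Ucp2* did not. The exceptions among the 23 were small differences. With control-tagged replicate 2 left out, the log2FC was -0.075 for *Fabp3*, -0.031 for *Acaa2*, -0.12 for *Dgat2* and -0.054 for *Plin2*. With control-tagged replicate 4 left out, it was -0.022 for *Fabp3* and -0.11 for *Plin2*. With TK-/--tagged replicate 2 left out, it was -0.067 for *Angptl4*, -0.0024 for *Dgat2* and -0.017 for *Plin2*. With TK-/--tagged replicate 3 left out, it was -0.012 for *Fabp3*, -0.072 for *Dgat2* and -0.0094 for *Plin2*. The highest values with a library left out were 1.10 for *Angptl4*, 0.22 for *Fabp3*, 0.37 for *Acaa2*, 0.13 for *Dgat2* and 0.16 for *Plin2*. Scaled to cardiomyocyte markers, the log2FC was -0.12 for *Fabp3*, -0.021 for *Cpt1b*, -0.021 for *Acaa2*, -0.15 for *Dgat2*, -0.16 for *Plin2* and -0.034 for *Pnpla2*. In that setting the median of the members was 0.026 and that of all genes -0.193. Members at an unadjusted p under 0.05 numbered 3, against 13.7% of all genes, members without overlap 0 and genes called 2. Genes called were 1 as reported, 53 by the likelihood ratio test, 32 by DESeq2, 23 without a filter on low counts and 1 to 3 with a library left out. Members without overlap were 1 as reported, where 4.98% of all genes had no overlap. They were 0 with RLE size factors, 4 with total counts, 0 without a filter and 1 to 4 with a library left out. Groups part more easily with fewer libraries, and the shares of all genes in these settings are not given. These counts are therefore not a result about the members. Members at an unadjusted p under 0.05 were 10 as reported, where 8.96% of all genes had such a p. With a library left out they were 2 to 13, where 5.25% and 10.1% of all genes had such a p. Of the 13, found without control-tagged replicate 1, 12 were higher. With the replicate number as a block they were 6, all higher, against 9.19% of all genes. Samples that share a number correlated by -0.03, 0.03, 0.34 and -0.06 for replicates 1 to 4. These few values do not settle whether the numbers pair the samples, and the block changed no call. The causes were not tested. *Acsl3*, *Cpt1b* and *Acsl4* have the fewest counts over the 8 libraries, down to 67 in a library, and so the most counting error. The counts of *Cpt1b* also depend on how reads on exons shared with Gm44502 were assigned, which is not known.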
